A study of Mus musculus with 6 samples.

Results

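The transcriptome of granulosa cells from wild-type mice was described gene by gene, from the 3 libraries labelled WT (replicates 1 to 3) of the 6 in a study of a granulosa cell-specific Jmjd3 knockout. The level of each gene was computed per library as TPM, a share of transcripts: the count divided by the exon length of the gene and scaled to the same total in every library. Genes with a mean of at least 1 TPM over the 3 libraries were kept, which gave 15504 of 49315 listed genes (31.4%), 13412 of them protein-coding. The genes were thus chosen by their mean TPM in these same libraries, so what follows is a description of levels with no test, and the knockout libraries were not analysed here.

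All 3 libraries carry the same labels: C57BL/6J mice, 8 to 9 weeks old, genotype wild type, granulosa cells from the ovary, with RNA taken from freshly isolated cells. The labels do not say whether these wild-type mice carry a floxed allele or a Cre transgene. They also give no stage of the oestrous cycle, no hormone treatment and no method for freeing the cells from the follicles. The labels name no animal for any replicate, and the spread between libraries may be technical. Unless stated otherwise, a level is the mean TPM ± SD of the 3 libraries.

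Granulosa cells line the ovarian follicle and feed the oocyte through gap junctions. They respond to follicle-stimulating hormone (FSH), make oestradiol from androgens supplied by the neighbouring theca cells, and secrete inhibins, activins and anti-Müllerian hormone, which belong to the transforming growth factor beta family. After the ovulatory surge of luteinising hormone (LH) they stop dividing and become luteal cells that make progesterone.

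Promoter windows are shown for 4 genes described below: the receptor genes Amhr2 and Fshr, the steroid enzyme gene Hsd3b1 and the gap junction gene Gja1. Each window holds the 250 bases before the RefSeq start of the gene on GRCm38.p6, read 5′ to 3′ on the strand of the gene. They span chr15:102445117-102445366 (plus strand) for Amhr2, chr17:89200676-89200925 (minus strand) for Fshr, chr3:98859795-98860044 (minus strand) for Hsd3b1 and chr10:56377050-56377299 (plus strand) for Gja1. Capitals mark matches, on either strand, to the letters of 4 motifs: AAGGTCA of NR5A receptors, TGAGTCA of AP-1 (Fos and Jun), CACGTG of E-box factors and AGATAA of GATA factors.
Amhr2: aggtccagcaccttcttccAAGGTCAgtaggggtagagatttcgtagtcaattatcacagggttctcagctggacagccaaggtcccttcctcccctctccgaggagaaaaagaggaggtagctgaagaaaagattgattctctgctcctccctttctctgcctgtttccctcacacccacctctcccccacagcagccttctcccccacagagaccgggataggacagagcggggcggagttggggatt
Fshr: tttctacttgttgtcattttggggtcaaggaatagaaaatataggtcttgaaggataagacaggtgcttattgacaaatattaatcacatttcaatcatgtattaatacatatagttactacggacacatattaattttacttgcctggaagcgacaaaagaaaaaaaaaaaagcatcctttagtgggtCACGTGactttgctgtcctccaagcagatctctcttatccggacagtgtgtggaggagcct
Hsd3b1: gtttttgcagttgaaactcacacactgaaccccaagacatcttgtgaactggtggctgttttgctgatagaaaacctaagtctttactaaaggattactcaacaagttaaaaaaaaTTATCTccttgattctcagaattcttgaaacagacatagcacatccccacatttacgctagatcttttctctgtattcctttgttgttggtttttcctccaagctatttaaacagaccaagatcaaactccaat
Gja1: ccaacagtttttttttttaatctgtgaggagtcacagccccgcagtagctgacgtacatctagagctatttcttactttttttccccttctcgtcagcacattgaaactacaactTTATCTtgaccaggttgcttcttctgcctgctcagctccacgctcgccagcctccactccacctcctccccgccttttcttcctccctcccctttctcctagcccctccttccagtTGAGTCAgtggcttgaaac
The Amhr2 window holds AAGGTCA, starting 231 bases before the start of the gene. The Fshr window holds CACGTG, starting 61 bases before. The windows of Hsd3b1 and Gja1 each hold TTATCT, the reverse strand of AGATAA, starting 134 and 135 bases before, and that of Gja1 also holds TGAGTCA 19 bases before. No match overlaps another in these windows. Such short words are common: of the 32851 RefSeq windows of this length, 4.08% hold the NR5A word, 4.46% the AP-1 word, 6.02% the E-box word and 9.99% the GATA word on either strand. Genes and motifs were picked after the windows were seen, and a match is a description of the letters, not of binding. Of 15467 kept genes with a symbol, 11020 have a window in the RefSeq table.

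Gene counts summed to 49901493, 47562679 and 49094867 in WT replicates 1, 2 and 3, with at least 1 count in 26544, 26122 and 27057 genes. Over all listed genes, 9395 reached 10 TPM, 1562 reached 100 TPM and 107 reached 1000 TPM, and 19170 had no count in any of the 3 libraries. The threshold separates near neighbours: Olfr288 (0.654, 1.10 and 1.26 TPM) and Gm3854 had means of 1.003 and 1.001 TPM and were kept, while Tmem82 (0.999 TPM) and Pcdhb2 (0.997 TPM) were not. Of the kept genes, 14704 were at 1 TPM or more in each library and 800 were below it in at least 1 library. As a background for the gene lists, 61.5% of the 21811 protein-coding genes listed were at 1 TPM or more, 41.8% at 10 or more and 7.05% at 100 or more.

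Transcripts of the 13 mitochondrial protein genes made up 10.5%, 13.0% and 14.2% of all TPM in WT replicates 1 to 3, the lowest share being in replicate 1. The 102 cytosolic ribosomal protein genes made up 11.3%, 11.2% and 9.51%. The inhibin and activin subunit genes Inha, Inhba and Inhbb together held 1.69 ± 0.176%, and the steroid enzyme genes Hsd3b1, Cyp11a1 and Hsd17b1 held 1.07 ± 0.165%. The 100 highest genes held 34.2 ± 1.32% of all TPM, and the 100 highest nuclear protein-coding genes 20.3 ± 0.952%. Some values carry a clear technical limit. Genes with under 200 bases of exon held 2.19% of TPM but at most 0.0572% of counts. TPM divides by their length, which is shorter than the sequenced fragments. The 57-base gene Gm23935 came to 13085 TPM in this way. It is absent from the rankings of protein-coding genes but is among the 100 highest genes above. Genes with such short exons also enter the counts of genes at each TPM level. Among the mitochondrial genes, mt-Co1 stood at 44450 ± 7188 TPM, whereas mt-Co2 had only 77 to 127 counts, mt-Co3 134 to 193 and mt-Atp6 89 to 162. Reads of these 3 genes can also match nuclear copies, so their values are uncertain, and they add almost nothing to the mitochondrial share above.

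**Figure D1:**
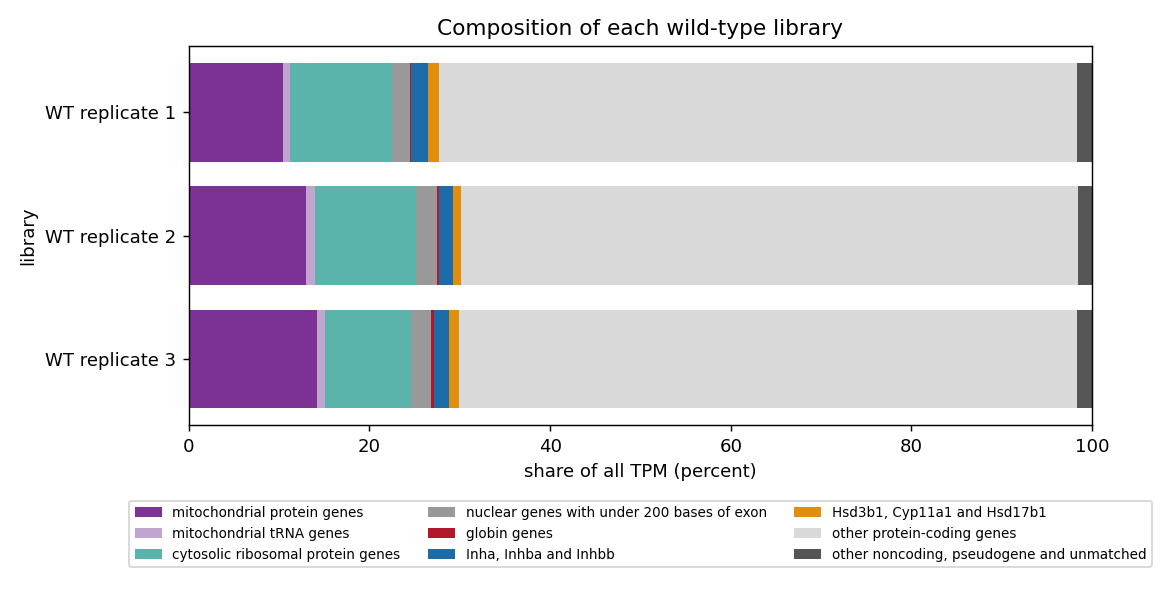
Stacked bars give the share of all TPM (percent, horizontal axis) held by each class of genes in each of the 3 wild-type libraries. Mitochondrial protein genes take 10.5% to 14.2%, ribosomal protein genes 9.51% to 11.3%, and the globin genes 0.144% to 0.294%, lowest in replicate 1.

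The 5 markers given with the granulosa cell label were all well above 1 TPM in every library. They came with the label, so their levels are a description and not a check of it. Inha, the alpha subunit of inhibin (chromosome 1, 75507077 to 75510366, GRCm38), stood at 14394, 12153 and 13724 TPM in WT replicates 1, 2 and 3 and had the highest mean of all nuclear protein-coding genes. Inhbb, the beta B subunit, stood at 2456, 1661 and 1989 TPM. Amh (chromosome 10, 80805248 to 80807648), anti-Müllerian hormone of growing follicles, stood at 1418, 1372 and 1912 TPM. Replicate 1 was highest for both inhibin subunits and replicate 3 for Amh. The transcription factor Foxl2, which keeps the granulosa fate, stood at 292, 243 and 248 TPM, and the FSH receptor Fshr at 188, 167 and 159 TPM.

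A second list of 18 granulosa cell genes was also at 1 TPM or more in full, with 13 above 100 TPM and a median of 326 TPM. This list was chosen with earlier results of these data known, so it is no check of the label either. Its highest members were Gja1 (3959 ± 447 TPM), Hsd17b1 (1516 ± 278 TPM), Inhba (1473 ± 238 TPM) and the activin-binding protein Fst (984 ± 101 TPM). Its lowest were Gatm (28.9 ± 1.95 TPM), the orphan receptor Nr0b1 (36.4 ± 3.31 TPM) and Wt1 (43.4 ± 2.46 TPM), a zinc finger factor of early follicles.

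Among secreted proteins, Inha, Inhbb, Amh and Inhba of the transforming growth factor beta family stood near the top. Of 34 family ligands, 21 were at 1 TPM or more and 6 at 100 TPM or more, against 61.5% and 7.05% of all listed protein-coding genes. The share at 1 TPM was thus near that background. The family median was 2.74 TPM, below the 4.72 TPM of all listed protein-coding genes, and Inhbe, Bmp10, Gdf1 and Gdf5 had no count. The beta subunits differed by little: Inhba, which pairs with Inha to make inhibin A, stood at 1733, 1266 and 1421 TPM, so that Inhbb was 1.38 ± 0.0567 times as high as Inhba within a library. Inha exceeded Inhbb 6.69 ± 0.75 times and Inhba 9.19 ± 0.763 times. The alpha subunit was thus far more abundant than both beta subunits in all 3 libraries. Gdf9 (236 ± 45.1 TPM) and Bmp15 (92.7 ± 22.3 TPM), the growth factors of the oocyte, came next with Bmp1 (100 ± 5.91 TPM), a protease named with the family. The bone morphogenetic proteins Bmp6 (58.8 ± 4.81 TPM), Bmp3 (52.0 ± 1.94 TPM) and Bmp2 (47.4 ± 5.48 TPM) lay within a narrow range, as did Tgfb3 (49.8 ± 2.31 TPM), the highest of the 3 Tgfb genes.

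Antagonists of these ligands were broadly present, with 16 of 17 at 1 TPM or more. Fst stood at 1064, 871 and 1017 TPM, which is 0.672 ± 0.0523 times the level of Inhba. The latent binding protein Ltbp3 (201 ± 12.1 TPM) and Twsg1 (195 ± 0.824 TPM), which binds bone morphogenetic proteins, followed, and Grem1, another such antagonist, was at 109 ± 3.17 TPM. Fstl3, a relative of Fst, was low at 4.53 ± 1.03 TPM.

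The secreted proteins at the top of the ranking, after Inha and Inhbb, were Htra1 (1720 ± 114 TPM), a serine protease, Amh, the plasma glutathione peroxidase Gpx3 (1551 ± 63.8 TPM), Inhba, Mif (1301 ± 86.1 TPM), the chaperone Clu (1291 ± 97.3 TPM), Gas6 (1133 ± 52.0 TPM) and Sparc (992 ± 57.6 TPM). The library ranges of Inhbb and Htra1 overlapped each other, and that of Amh overlapped those of Inhbb, Htra1 and Gpx3. Within each library Inhbb nevertheless lay above both Htra1 and Amh. The order of Amh against Htra1 and Gpx3 changed between libraries, Amh being above them in replicate 3 only. Gpx3 lay below Inhbb and Htra1 in every library, and Inha lay far above all of them. Of the 300 highest protein-coding genes, 24 were secreted proteins by a role given by hand. Further down this set were the protease Prss35 (646, 1016 and 1013 TPM), the Wnt antagonist Sfrp4 (1141, 706 and 758 TPM), Cnmd (797 ± 56.5 TPM), a cartilage matrix protein that inhibits vessel growth, Apoe (786 ± 104 TPM) and Serpine2 (776 ± 76.3 TPM), an inhibitor of plasminogen activators. Prss35 was lowest and Sfrp4 highest in replicate 1, and in both the other libraries lay close together.

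Other signalling ligands were lower, with 58 of 75 at 1 TPM or more but only 7 at 100 TPM or more. The hedgehog ligands, which granulosa cells send to theca cells, were both present: Ihh stood at 212, 159 and 190 TPM and Dhh at 109, 92.0 and 110 TPM, and Shh was at 0.0822 ± 0.0826 TPM. Ihh was 1.80 ± 0.117 times as high as Dhh. Nppc, the natriuretic peptide precursor that holds the oocyte in meiotic arrest, stood at 164, 119 and 146 TPM. Its receptor Npr2 was at 131 ± 10.2 TPM, a ratio of 1.08 ± 0.0926. The remaining members above 100 TPM were Ccn2 (366 ± 66.9 TPM), a matricellular protein, the neurotrophic factor Manf (270 ± 22.7 TPM), Grn (224 ± 14.3 TPM) and Ccn1 (107 ± 16.8 TPM). Kitl, which acts on the Kit receptor of the oocyte, was at 63.5 ± 8.30 TPM, Vegfa at 54.6 ± 8.11 TPM and Igf1 at 43.4 ± 3.20 TPM.

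Of 19 Wnt genes, 10 were at 1 TPM or more, led by Wnt4 (79.8 ± 17.4 TPM), a factor of ovarian fate, Wnt6 (74.4 ± 12.3 TPM) and Wnt2b (42.4 ± 5.76 TPM). Fibroblast growth factors were scarce: 7 of 22 reached 1 TPM and none reached 10 TPM, with Fgf18 highest at 6.20 ± 1.53 TPM. Of 10 genes that bind or release insulin-like growth factors, 7 were at 1 TPM or more, with Igfbp7 at 429 ± 5.56 TPM, Igfbp5 at 342 ± 46.7 TPM and Igfbp2 at 236 ± 41.9 TPM, while the protease Pappa, which cleaves Igfbp4, was at 3.44 ± 1.42 TPM.

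Matrix and basal lamina genes were nearly all detected, 36 of 39 at 1 TPM or more. After Sparc came Thbs1 (528 ± 31.6 TPM), Fbln1 (335 ± 22.8 TPM), Mgp (227 ± 25.2 TPM) and the collagen IV chain gene Col4a1 (180 ± 5.50 TPM). A further collagen IV chain gene, Col4a2 (122 ± 5.80 TPM), lay below Spock2, Bcam and Lamb2. Of the 44 collagen genes, 32 were at 1 TPM or more, and Col6a1 (264 ± 26.4 TPM) was highest. Of the 11 laminin genes, 10 were, led by Lamb2 (133 ± 10.7 TPM), Lama1 (83.6 ± 8.65 TPM) and Lamc1 (68.1 ± 3.87 TPM). The proteases and their inhibitors included 36 of 38 members at 1 TPM or more and 15 at 100 or more. Ctsl, the lysosomal protease cathepsin L, was the highest of them at 4374, 4162 and 4167 TPM and varied little between libraries. The collagen chaperone Serpinh1 (1634 ± 38.2 TPM), the urokinase gene Plau (333 ± 27.5 TPM), Mmp11 (328 ± 31.7 TPM) and Timp1 (215 ± 25.1 TPM) were also high, and Plaur, the receptor for urokinase, was at 2.997 ± 0.103 TPM.

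Receptors lay well below the secreted proteins. Only 5 of the 300 highest protein-coding genes were given this role: the integrin subunit Itgb1 (561 ± 15.5 TPM), the progesterone receptor membrane component Pgrmc1 (517 ± 35.8 TPM), the laminin receptor Dag1 (464 ± 26.9 TPM), Lhcgr and Amhr2. Lhcgr, the LH receptor (chromosome 17, 88741549 to 88791976), stood at 455, 340 and 401 TPM. It was higher than Fshr in each library, by 2.32 ± 0.256 times. Of the 69 G protein-coupled receptors listed, 48 were at 1 TPM or more. Adgrg1, an adhesion receptor, was second at 253 ± 19.3 TPM, and Smo (84.7 ± 0.817 TPM), Lgr4 (79.2 ± 2.00 TPM), the oxytocin receptor Oxtr (65.5 ± 5.57 TPM) and the prostaglandin F receptor Ptgfr (83.3, 34.4 and 45.9 TPM) followed Fshr. Only Lhcgr, Adgrg1 and Fshr passed 100 TPM. Agtr1b and Ghrhr had no count, for which 3 counts would give at most 0.0821 and 0.0506 TPM.

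Of the 14 receptors of the transforming growth factor beta family, 13 were at 1 TPM or more, with a median of 24.2 TPM. Amhr2, the type II receptor for Amh (chromosome 15, 102445367 to 102454630), stood at 357, 375 and 425 TPM, and Amh was 4.04 ± 0.425 times as high. Next came Bmpr1b (152 ± 5.11 TPM) and Bmpr2 (132 ± 4.29 TPM), receptors for bone morphogenetic proteins, the type I receptor Tgfbr1 (111 ± 10.8 TPM) and Bmpr1a (84.7 ± 2.10 TPM). Bmpr1b exceeded Bmpr1a in each library, by 1.79 ± 0.0852 times. The activin type II receptors were lower, Acvr2a at 15.9 ± 1.18 TPM and Acvr2b at 4.86 ± 0.494 TPM.

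Among 90 other receptors, 83 were at 1 TPM or more. Scarb1, which takes up cholesterol from lipoproteins, stood at 431, 306 and 363 TPM. Axl (206 ± 8.52 TPM), a receptor for Gas6, was higher than its relatives Mertk (25.3 ± 0.493 TPM) and Tyro3 (24.4 ± 2.68 TPM). The prolactin receptor Prlr was at 98.2 ± 7.502 TPM, Igf1r at 44.7 ± 1.48 TPM and Insr at 18.1 ± 0.926 TPM. Ptch1, the hedgehog receptor, was at 29.3 ± 0.0809 TPM. Egfr, the receptor of the ovulatory growth factors, was at 14.8 ± 0.376 TPM, and Erbb4 at 0.0785 ± 0.0236 TPM.

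Of the 300 highest protein-coding genes, 8 were transcription factors or cofactors. The corepressor Aes (755 ± 66.0 TPM) was the highest of them. Next came Ybx1 (701 ± 60.8 TPM), Ctnnb1 (524 ± 20.7 TPM), Tsc22d1 (505 ± 32.7 TPM), Nr5a2, Jund (443 ± 47.5 TPM), Cited2 (420 ± 45.4 TPM) and Jun (392 ± 45.5 TPM). Nr5a2, the orphan nuclear receptor liver receptor homologue (chromosome 1, 136842571 to 136960448), stood at 527, 456 and 411 TPM and was the highest of 49 nuclear receptors. Its relative Nr5a1 stood at 153, 150 and 136 TPM, so that Nr5a2 was 3.17 ± 0.24 times as high. The lowest library of Nr5a2 lay above the highest of Nr5a1.

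Oestrogen receptor beta, Esr2, was the second nuclear receptor at 174, 159 and 149 TPM, against 6.87, 7.13 and 7.08 TPM for Esr1, a ratio of 22.9 ± 2.25. The progesterone receptor Pgr was at 0.279 ± 0.0158 TPM, from 39 to 43 counts per library. In all, 37 of the 49 nuclear receptors were at 1 TPM or more, with 3 at 100 or more.

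Of 119 other transcription factors and cofactors, 113 were at 1 TPM or more and 22 at 100 or more. The forkhead genes Foxo1 (285, 287 and 241 TPM), a target of FSH signalling, and Foxl2 had nearly equal levels, a ratio of 1.04 ± 0.122, and stood above the other 42 forkhead genes, of which Foxp4 was highest at 69.7 ± 2.79 TPM. Gata4 (169 ± 13.4 TPM) exceeded Gata6 (122 ± 16.6 TPM) 1.40 ± 0.112 times, and Gata1, Gata2 and Gata3 were under 5 TPM. Sox4 (143 ± 8.68 TPM) held 53.0% of the summed level of the 19 Sox genes. The testis-determining relative Sox9 was at 2.10 ± 0.116 TPM, and the testis factor Dmrt1 had 0 to 3 counts per library. All 8 Smad genes were at 1 TPM or more, with the common partner Smad4 (95.1 ± 5.003 TPM) highest, Smad3 at 49.1 ± 2.32 TPM and Smad2 at 43.4 ± 2.85 TPM. Of the 39 Hox genes, 16 were at 1 TPM or more, led by Hoxd8 (35.7 ± 2.29 TPM).

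**Figure D2:**
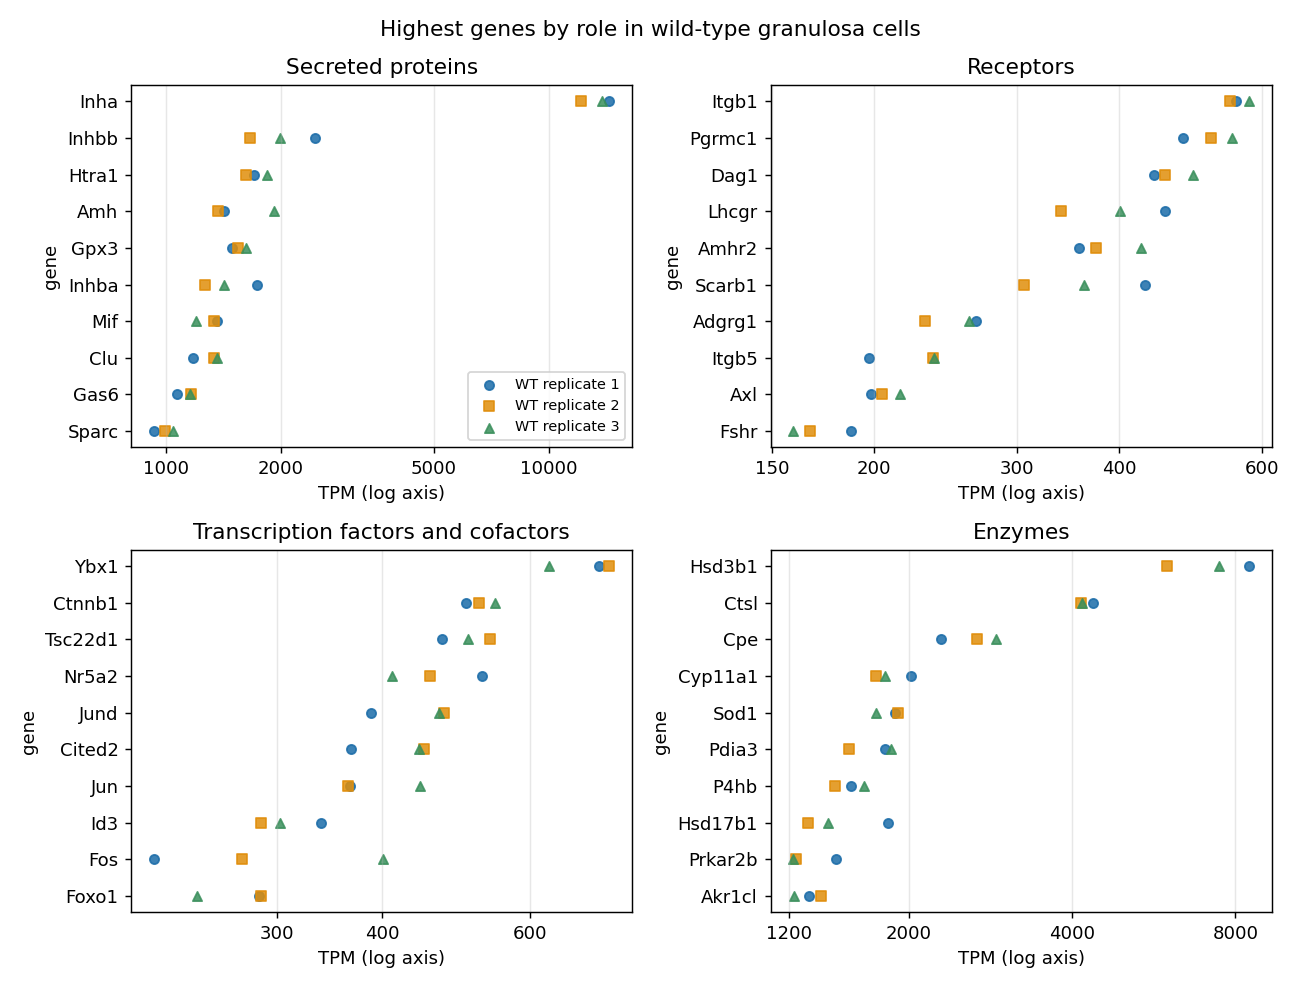
For each role, 10 genes are shown with their TPM (horizontal log axis) in each of the 3 wild-type libraries, as 1 symbol per library. Secreted proteins and enzymes are the 10 highest of their role among the 300 highest protein-coding genes. Receptors and transcription factors are the 10 highest of the hand-made lists, which do not hold Aes (755 TPM). Inha stands alone, at 12153 TPM or more, Hsd3b1 leads the enzymes, and of the plotted genes Fos has the widest spread, from 214 to 401 TPM.

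Hsd3b1 had the highest level of all enzyme genes, and 2 further steroid enzyme genes, Cyp11a1 and Hsd17b1, were among the 10 highest. Hsd3b1, which converts pregnenolone to progesterone (chromosome 3, 98852194 to 98859794), stood at 8475, 5981 and 7460 TPM, the third highest of all nuclear protein-coding genes. Of the 7 Hsd3b genes it held 99.97% of the summed level; the copies are similar in sequence, so the low values of the others are uncertain. Cyp11a1, which makes pregnenolone from cholesterol, stood at 2019, 1737 and 1806 TPM. Hsd3b1 was 3.92 ± 0.418 times as high as Cyp11a1. Hsd17b1, which reduces oestrone to oestradiol, stood at 1830, 1300 and 1418 TPM. The order Hsd3b1, Cyp11a1, Hsd17b1 held in each library, and each was highest in replicate 1 and lowest in replicate 2.

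The oestrogen-forming aromatase Cyp19a1 was at 174, 140 and 122 TPM, below Hsd17b1 by 10.5 ± 1.16 times. The cholesterol carrier gene Star, needed for import into mitochondria, stood at 280, 232 and 277 TPM, and the electron carriers that serve Cyp11a1, Fdx1 (484 ± 59.4 TPM) and Fdxr (258 ± 10.2 TPM), were also high. Akr1c14, a hydroxysteroid dehydrogenase, was at 727 ± 75.0 TPM, whereas Akr1c18, the progesterone-degrading enzyme of the regressing corpus luteum, stood at 24.2, 29.9 and 13.8 TPM. Cyp17a1, the androgen-forming enzyme of theca cells, stood at 113, 175 and 93.3 TPM and was highest in replicate 2, where it exceeded Cyp19a1. In all, 26 of 30 steroid genes were at 1 TPM or more and 17 at 100 or more, and Cyp11a1 held 70.8% of the summed level of 94 cytochrome P450 genes.

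All 29 genes of cholesterol synthesis and handling were at 1 TPM or more, with a median of 70.0 TPM. Npc2, a lysosomal cholesterol carrier, was highest at 330 ± 16.2 TPM, and Soat1, which esterifies cholesterol, was at 236 ± 31.3 TPM. Hmgcs1, an early step of synthesis, stood at 401, 234 and 278 TPM, and Hsd17b7 at 193, 76.6 and 109 TPM; Hsd17b7 serves both cholesterol and oestradiol synthesis. Both were highest in replicate 1 and lowest in replicate 2.

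Redox genes were the other large enzyme group: 48 of 49 were at 1 TPM or more and 27 at 100 or more. The superoxide dismutase Sod1 stood at 1889, 1910 and 1738 TPM. After Gpx3 came the retinal dehydrogenase Aldh1a1 (1022 ± 74.0 TPM), the microsomal transferase Mgst1 (612 ± 37.2 TPM) and the peroxiredoxin Prdx1 (583 ± 27.3 TPM). Gstm1 (418 ± 30.9 TPM) and Gstm2 (398 ± 23.9 TPM) led the Gstm family, whose members are near copies, so the split between them is uncertain. The other enzymes among the highest 20 of this role included Cpe (2295, 2666 and 2896 TPM), a carboxypeptidase that trims hormone precursors, Akr1cl (1304 ± 73.7 TPM), the fatty acid desaturase Scd2 (1173 ± 173 TPM), the epoxide hydrolase Ephx2 (969 ± 166 TPM) and Idh1 (959 ± 32.2 TPM). Of 24 genes of glucose use, 22 were at 1 TPM or more, led by Gapdh (812 ± 55.9 TPM). Of the lactate dehydrogenase subunits, Ldhb (708 ± 26.02 TPM) exceeded Ldha (526 ± 14.8 TPM) 1.35 ± 0.0848 times. The glucose transporter Slc2a1 was at 43.3 ± 2.21 TPM, and the amino acid transporter Slc7a5 at 214 ± 11.8 TPM.

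Connexin transcripts were nearly all from 1 gene. Gja1, the connexin that joins granulosa cells to each other (chromosome 10, 56377300 to 56390419), stood at 4398, 3504 and 3975 TPM and held 98.6% of the summed level of 20 connexin genes. Gja4, the connexin of the oocyte side, was at 43.6 ± 5.01 TPM, and 4 further connexins lay between 1 and 10 TPM. Of 26 junction genes, connexins included, 12 were at 1 TPM or more. Ctnnb1, which also acts at cadherin junctions, is given above, and of the cadherins Cdh2 was at 53.9 ± 2.18 TPM and Cdh1 at 22.1 ± 2.93 TPM.

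Of 32 genes of cyclic nucleotide signalling, the path by which FSH and LH act, 28 were at 1 TPM or more. Prkar2b, a regulatory subunit of protein kinase A, stood at 1469, 1236 and 1224 TPM, which is 4.55 ± 0.409 times the level of Prkar1a (288 ± 10.3 TPM). The catalytic subunit gene Prkaca was at 107 ± 3.22 TPM and the stimulatory G protein gene Gnas at 90.1 ± 1.85 TPM. Among the phosphodiesterases, Pde8a was highest at 44.1 ± 3.92 TPM, and the 4 Pde4 genes were all under 2 TPM. Adcy6 (33.1 ± 1.61 TPM) and Adcy9 (31.0 ± 1.79 TPM) were the highest adenylyl cyclases.

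Several genes that the ovulatory surge is known to induce were near or under 1 TPM. Areg stood at 1.001, 1.16 and 1.14 TPM, Ereg at 0.407, 0.755 and 0.921 TPM, the cyclooxygenase Ptgs2 at 0.671, 0.680 and 0.667 TPM and the hyaluronan synthase Has2 at 0.287, 0.444 and 0.408 TPM. These values rest on 21 to 66 counts per library. Tnfaip6, a protein of the cumulus matrix, was at 2.24 ± 0.160 TPM. Of the 20 genes in this list 14 were at 1 TPM or more, 9 at 10 or more and 5 at 100 or more. The last group included Rgs2 (417 ± 16.6 TPM), Lhcgr, Star and the protease Adamts1 (74.4, 172 and 128 TPM), which are also expressed outside the surge. Vcan (71.9 ± 6.88 TPM), Runx1 (19.7 ± 4.14 TPM) and Edn2 (11.8 ± 3.11 TPM) lay between 10 and 100 TPM.

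Immediate early genes were present at higher levels, with 27 of 28 at 1 TPM or more and a median of 62.9 TPM. After Jund and Jun came Ccn2 at 310, 440 and 348 TPM, highest in replicate 2, and Fos at 214, 272 and 401 TPM. Ier2 was at 187 TPM on average and Egr1 at 116, 157 and 207 TPM. Junb stood at 77.9, 117 and 173 TPM. Each of Fos, Egr1 and Junb was lowest in replicate 1 and highest in replicate 3. The list was highest in replicate 3 for 19 of 27 members, against 28.1% of all kept protein-coding genes; this family is known to respond to handling of cells, and the part of cell isolation in these levels was not tested.

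Proliferation genes were expressed throughout: all 36 cell cycle genes were at 1 TPM or more, with a median of 58.9 TPM. Cdk4 (290 ± 24.6 TPM), the replication clamp Pcna (180 ± 17.3 TPM) and Ccnb2 (142 ± 7.595 TPM) were highest. Ccnd2, the cyclin that FSH induces in granulosa cells, stood at 139, 109 and 119 TPM, 31.2 ± 3.25 times the level of Ccnd1 (3.98 ± 0.929 TPM). Mki67, a marker of dividing cells, was at 61.9, 46.7 and 60.4 TPM. The inhibitor Cdkn1b was at 139 ± 17.7 TPM.

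Transcripts that mark other ovarian cell types were present in all 3 libraries. In a bulk library, fewer cells of a type and less RNA per cell cannot be told apart, so the levels below are not shares of cells. Oocyte genes were the clearest: 29 of 30 were at 1 TPM or more, with a median of 52.9 TPM and summed levels of 2125, 2143 and 2703 TPM. Gdf9 stood at 235, 191 and 281 TPM, the oocyte linker histone H1foo at 209, 231 and 266 TPM, Padi6 at 189, 183 and 236 TPM and the zona pellucida gene Zp3 at 174, 193 and 227 TPM. Within a library, Gdf9 was on average 0.909 ± 0.195 times as high as Foxl2. All 29 were highest in replicate 3. Other zona genes were Zp2 (133 ± 20.8 TPM) and Zp1 (69.8 ± 10.1 TPM), and the early oocyte factors Figla (3.24 ± 0.664 TPM), Ddx4 (3.57 ± 0.441 TPM) and Sohlh1 (0.829 ± 0.388 TPM) were the lowest. Oosp and Obox genes lie in clusters of near copies and are uncertain one by one.

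Theca and luteal lists share members with each other and with the steroid genes. All 10 theca genes were at 1 TPM or more, but the highest, Aldh1a1, Lhcgr and Mgp, are not restricted to theca. Its more specific members were lower: besides Cyp17a1, Insl3 stood at 5.67, 7.92 and 6.66 TPM and Hhip at 1.48 ± 0.243 TPM. Both Cyp17a1 and Insl3 were highest in replicate 2. All 10 luteal genes were also at 1 TPM or more and 7 at 100 or more, led by Hsd3b1, Cyp11a1 and Sfrp4. The luteal median, 383 TPM, was the highest of the non-granulosa lists. It also lay above the 326 TPM of the second granulosa list. The part of luteal cells in these levels was not tested.

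Genes of the ovarian surface epithelium had the highest median of the non-granulosa lists other than the luteal list, 103 TPM, with 11 of 13 at 1 TPM or more. Krt8 stood at 138, 143 and 132 TPM, Krt19 at 101, 142 and 137 TPM, the uroplakin gene Upk1b at 97.1, 122 and 146 TPM and Upk3b at 82.3, 127 and 128 TPM. Keratins 8 and 18 are also known in granulosa cells, but uroplakins mark mesothelial epithelia. Both uroplakin genes were lowest in replicate 1. The oviduct members of the list differed. Ovgp1, an oviduct glycoprotein, stood at 61.4, 17.6 and 6.13 TPM in WT replicates 1, 2 and 3. Foxj1, of ciliated cells, was at 0.406 ± 0.147 TPM and Pax8, of the oviduct, at 0.150 ± 0.00674 TPM.

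Blood cell transcripts were uneven. The red cell globin gene Hbb-bs stood at 890, 1573 and 1766 TPM, Hba-a1 at 308, 586 and 672 TPM and the haem synthesis gene Alas2 at 18.1, 24.997 and 28.3 TPM, all lowest in replicate 1. Globin genes have near-identical copies, so the split between them is uncertain. Of 11 red cell and platelet genes 7 were at 1 TPM or more, and those below it included Slc4a1 (0.134 ± 0.0574 TPM). Macrophage genes were all detected, 12 of 12 at 1 TPM or more: Lyz2 at 203, 212 and 261 TPM, C1qa at 86.0 ± 10.9996 TPM, C1qb at 79.3 ± 8.21 TPM and the more specific Adgre1 at 8.26 ± 0.936 TPM. All 7 genes shared by leukocytes were at 1 TPM or more, from Ptprc (1.05 ± 0.219 TPM) to Tyrobp (32.8 ± 2.54 TPM). Of 13 lymphoid genes 8 were at 1 TPM or more and none exceeded 3.30 TPM, and of 12 granulocyte and mast cell genes 3 were and none exceeded 2.30 TPM.

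Vessel, muscle and stromal genes were low to moderate. All 14 endothelial genes were at 1 TPM or more, from Sox17 (1.14 ± 0.381 TPM) to Cldn5 (39.2 ± 3.10 TPM), with Cdh5 at 25.8 ± 4.68 TPM and Pecam1 at 13.1 ± 2.29 TPM. All 10 muscle and pericyte genes were at 1 TPM or more. The smooth muscle actin gene Acta2 was at 212 ± 7.40 TPM, whereas the muscle myosin Myh11 was at 14.3 ± 2.48 TPM. Of 11 fibroblast genes 10 were at 1 TPM or more, and Dcn (179 ± 38.9 TPM), Col3a1 (118 ± 13.4 TPM) and Col1a1 (81.5 ± 3.74 TPM) were highest, and Pdgfra was at 11.7 ± 1.42 TPM. Of 7 adipocyte genes 4 were under 1 TPM, with Adipoq at 0.529 ± 0.697 TPM, although Pparg, which granulosa cells also express, was at 55.4 ± 8.27 TPM. Of 9 genes of testis supporting cells 8 were at 1 TPM or more, led by Clu, which both sexes express, while Sox9 and Dmrt1 stayed low as given above.

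**Figure D3:**
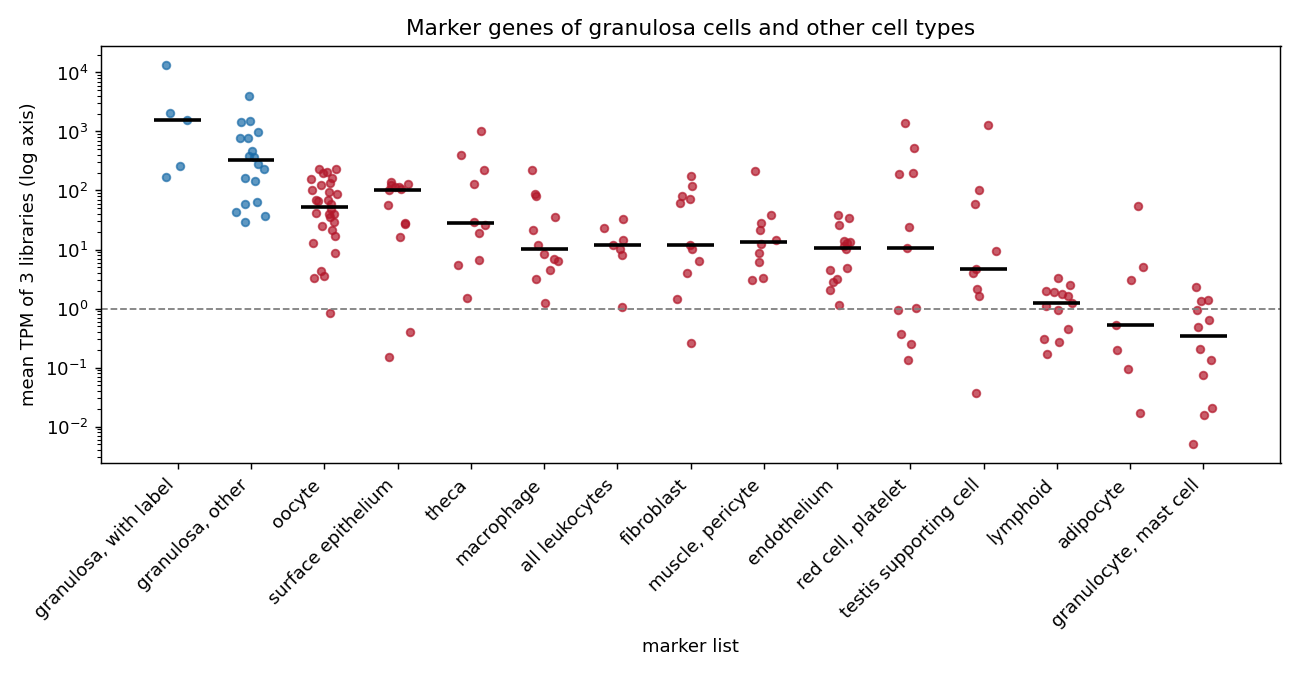
Each point is 1 gene of a marker list, at its mean TPM over the 3 wild-type libraries (vertical log axis), the black bars are list medians and the dashed line marks 1 TPM; genes with no count are drawn at 0.005. Granulosa lists (blue) have medians of 1567 and 326 TPM, the oocyte list 52.9 TPM, surface epithelium 103 TPM, and the lymphoid and granulocyte lists lie near or under 1 TPM. The luteal list, with a median of 383 TPM, is not drawn.

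Of genes with a noncoding type in the annotation and at least 200 bases of exon, 951 were at 1 TPM or more and 8 at 100 or more. The type is only that of the annotation: the 8 include Cct6a and Ifi30, listed there as processed transcripts. Gm42418, a gene known to overlap ribosomal RNA repeats, was highest at 2508 ± 250 TPM, and the nuclear RNA Malat1 was at 296 ± 52.4 TPM. Kdm6b, the gene of the JMJD3 demethylase that the study deletes in granulosa cells, stood at 31.2, 26.7 and 27.6 TPM in these wild-type libraries, close to the levels of the related demethylase Kdm6a (24.7 ± 2.59 TPM) and of the opposing methyltransferase Ezh2 (31.1 ± 3.35 TPM). These genes were added after their values were seen.

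The 3 libraries were close to each other. Over 9115 protein-coding genes at 10 TPM or more, the median coefficient of variation was 6.11%, against 1.99% from counting error alone. That error takes each count as independent, and would be larger if both reads of a pair were counted, which the labels do not say. The highest library exceeded the lowest by a median of 1.12 times. The ratio was over 1.5 in 181 genes (1.99%) and over 2 in 31. Replicate 1 was the highest library for 59.6% of these genes, replicate 2 for 18.03% and replicate 3 for 22.3%. TPM are shares of a fixed total, and the mitochondrial share was lowest in replicate 1. With the mitochondrial genes left out of the total, replicate 1 was highest for 41.1%, replicate 2 for 23.6% and replicate 3 for 35.3% of 9103 genes.

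The largest ratio was that of Ovgp1, an oviduct glycoprotein, at 61.4, 17.6 and 6.13 TPM. Plin4, a lipid droplet protein, stood at 86.8, 20.9 and 46.7 TPM, the secreted phosphoprotein Spp1 at 46.6, 136 and 54.4 TPM and the endothelial lipase Lipg at 191, 74.4 and 105 TPM. No library stood out for all of them: replicate 1 was highest for Ovgp1, Plin4 and Lipg, and replicate 2 for Spp1. Of the 181 genes with a ratio over 1.5, 78, 47 and 56 were highest in replicates 1, 2 and 3. The lowest library was replicate 1, 2 or 3 for 68, 94 and 19 of them, against 1468, 4146 and 3501 of all 9115 genes. Ptgfr and Hsd17b7, given above, were also more than 2 times as high in replicate 1 as in replicate 2. Xist, the RNA of the inactive X chromosome, stood at 24.2, 9.42 and 27.0 TPM, and the splicing kinase gene Clk1 at 33.6, 17.2 and 33.1 TPM. Both were lowest in replicate 2.

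**Figure D4:**
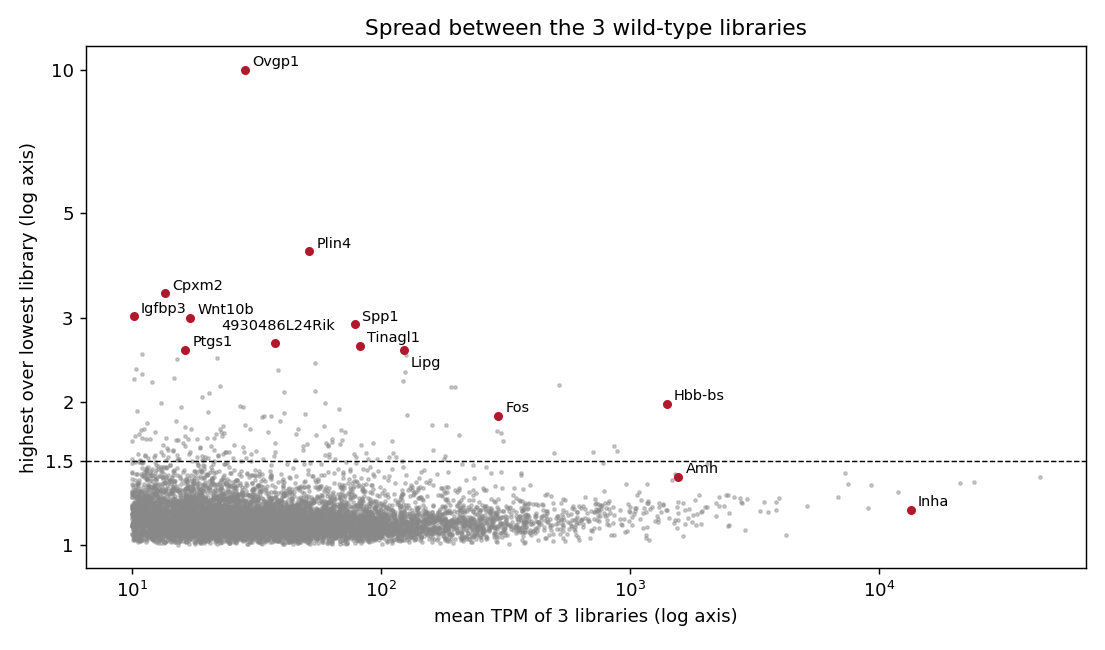
Each grey point is 1 of 9115 protein-coding genes, at its mean TPM (horizontal log axis) and the ratio of its highest to its lowest wild-type library (vertical log axis); the dashed line is a ratio of 1.5. Named in red are the 10 genes with the largest ratio and 4 genes of the text. Inha and Amh lie under the line, Hbb-bs and Fos above it, and Ovgp1 reaches 10.02.

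Some gene lists moved together between libraries. On the log2 scale, relative to the mean of the 3 libraries, the median of all 13412 kept protein-coding genes was 0.05, -0.04 and -0.01 in WT replicates 1, 2 and 3. The cholesterol genes were at 0.21, -0.26 and -0.01, and 22 of 29 were highest in replicate 1 and none in replicate 2. Cell cycle genes were at 0.15, -0.12 and -0.04, with 31 of 36 highest in replicate 1, where 54.1% of all kept protein-coding genes were highest. The red cell and platelet list was at -0.69, 0.08 and 0.35 and the oocyte list at -0.14, -0.10 and 0.21, every kept member of both being highest in replicate 3. Immediate early genes were at -0.16, -0.04 and 0.17, macrophage genes at -0.18, -0.04 and 0.16 and surface epithelium genes at -0.29, 0.06 and 0.13. Without mitochondrial genes in the total, 19 of 29 cholesterol and 30 of 36 cell cycle genes were highest in replicate 1, against 5144 of 13399 protein-coding genes. All 29 oocyte and 7 red cell members were then still highest in replicate 3, against 5344 of the 13399. The part of other cell types in the levels of further genes was not tested.

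**Figure D5:**
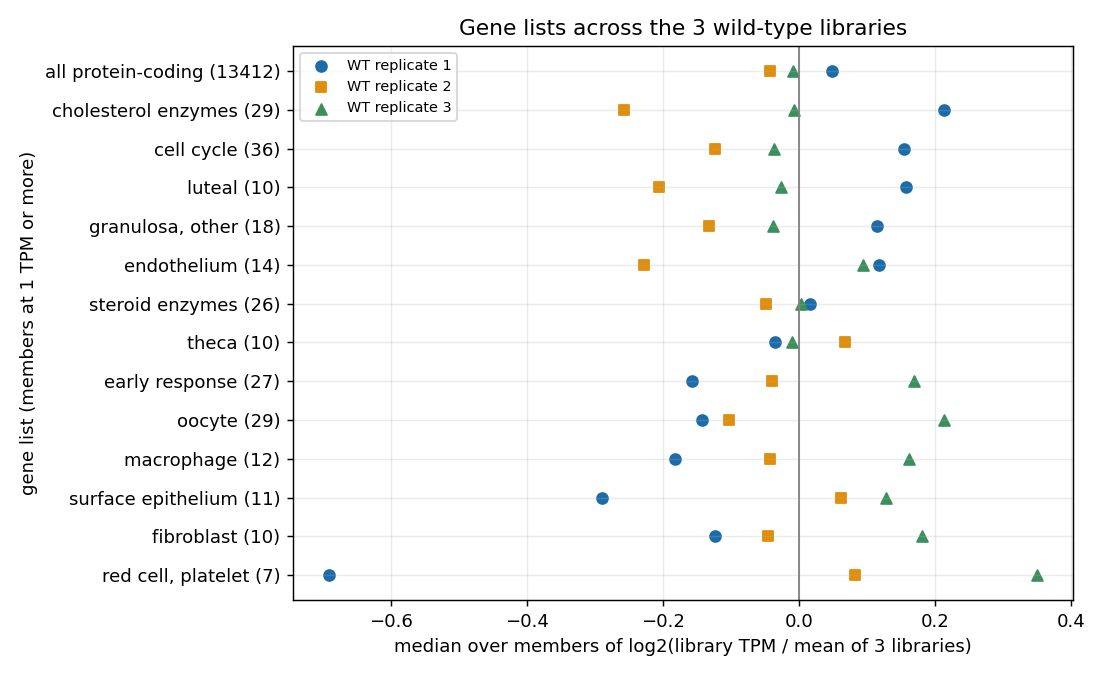
For each gene list, the median over its members of the log2 ratio of a library to the mean of the 3 wild-type libraries is plotted as 1 symbol per library, with the number of members at 1 TPM or more in brackets. Cholesterol and cell cycle genes lie highest in replicate 1, oocyte and red cell genes in replicate 3, and the red cell list of replicate 1 lies lowest at -0.69.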

How the data were processed

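RNA of 3 wild-type libraries was sequenced as read pairs of 150 bases, per the labels' protocols; the knockout libraries were not used. The deposited tables give raw counts of reads for each gene, as whole numbers, with the exon length of each gene beside them (a length in bases, another kind of value that the authors' counting program wrote, per the file headers). The submitters' processing notes name Trimmomatic 0.36, STAR 2.5.2b, Subread 1.5.2 with its program featureCounts, and the GRCm38 genome. Which annotation was used, how strand and multiply matching reads were handled, and whether a pair counted as 1 or 2 is unstated in the labels and headers, so near-identical, overlapping and antisense genes have uncertain values.

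Symbols came from GENCODE M21, found for 49056 identifiers and missing for 259; start and end were identical for 91.4% of those found. TPM were computed from count and length with pandas 2.3.3 in Python 3.11.15, and the steps were tested on simulated data. No statistical test was run. Every library has at least 47562679 counts, but genes near the threshold rest on few counts (29, 48 and 56 for Olfr288), and those with short exons on fewer still. The number of libraries, 3, limits the precision of every spread. For a gene with no count, 3 counts are taken as the upper limit. These limits cover counting error only.

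The rule for named genes took the 5 markers, the 20 highest protein-coding genes and up to 6 members of each list or family. It also took the 10 highest of each role and the 10 with the largest library ratio. Roles were given by hand after the ranking was known. Many of the 20 highest are not named above, among them Eef1a1, the second highest nuclear protein-coding gene, at 9084 ± 864 TPM. Genes outside it, the promoters and the motifs were chosen after their values or windows were seen. The members, the 36 lists and the alternatives were chosen with earlier results of these data known. The alternatives were another length, other genes in the total, TMM factors of edgeR 4.0.16, CPM, the median or lowest library, other minimum levels and leaving out each library. A few list members are not reported here.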

Additional observations from a re-analysis of the deposited data

How the results depend on the processing

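Levels depend mostly on length and on what the total holds. The count of genes at 1 TPM or more was 15504 and ranged from 13501 to 16037 over the choices of scale and summary, with 17765 at a minimum of 0.5 TPM and 13588 at 2 TPM; leaving out each replicate gave 15424 to 15674. The count at 100 TPM or more was 1562 and lay between 1460 and 2181, or 1540 to 1572 without a replicate. The share of TPM in the 100 highest genes, 34.2%, became 35.8% with an effective length, 25.4% without mitochondrial genes, 22.8% without the 10 highest genes, 32.8% with the lowest library and 19.9% as CPM; it was 33.8% to 35.0% without a replicate. For 42 named genes, CPM moved 19 by over 1.5 times, at most 5.12 times, and kept 211 of the 300 highest protein-coding genes, so the ranking is one per length. With the lowest library 1 gene, Hbb-bs, moved by over 1.5 times (1.58). No named gene moved beyond its SD under TMM factors. Leaving out a replicate cannot move a mean of 3 libraries beyond their SD, so the SD says nothing about that choice. Without a replicate the named genes moved by at most 1.18 times. No paired analysis was possible because the results come from no test and from 1 group.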
